A study of Mus musculus with 5 samples.

Results

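The nuclear genes of oxidative phosphorylation were followed in whole cerebella of mice at postnatal day 14. Members were the protein-coding genes whose symbols begin with Nduf, Uqcr, Uqcc, Atp5, Cox4, Cox5, Cox6, Cox7 or Cox8, together with Sdha, Sdhb, Sdhc and Sdhd. Gene identifiers were matched to symbols and biotypes with the GENCODE annotation of the mouse genome build GRCm38. The rule found 97 of the 55421 genes in the count table, with 96 symbols, because Atp5o has 2 identifiers. A further 12 processed pseudogenes and 1 non-coding RNA carry such symbols and were left out by their biotype. Reads that also match a processed copy of a member can be lost or misplaced, and how such reads were counted is not given in the sources used here.

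Bulk RNA-seq compared 3 Yy1 cKO libraries, of the genotype Pcp2 Cre/+; Yy1 fx/fx, with 2 control libraries, of the genotype Pcp2 Cre/+; Yy1 fx/+. Controls were littermates, and both genotypes thus carried Cre and at least 1 floxed allele of Yy1, the gene of a zinc finger transcription factor. Pcp2 is a Purkinje cell gene, so Cre is directed mainly to that cell type, while the RNA came from all cells of the cerebellum. Sexes were mixed. The labels do not say how many animals each library holds, so the p-values measure the spread between these libraries, part of which may be technical.

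Oxidative phosphorylation moves electrons from NADH (complex I) and succinate (complex II) through complex III and cytochrome c to oxygen (complex IV), and complex V, the ATP synthase, makes ATP from the proton gradient that complexes I, III and IV build. Complex II is wholly encoded in the nucleus, whereas the other complexes join nuclear subunits to a few subunits encoded by mitochondrial DNA. In mouse muscle cells YY1 is known to act with the coactivator PGC-1alpha on mitochondrial genes, and NRF1 and the ETS factor GABP are known activators of many of the same promoters.

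Total counts ran from 17424860 to 20305705 per library, and the members took 0.559% to 0.623% of them. Yy1 had 73.4, 81.7 and 75.8 CPM (library-scaled counts, with edgeR's TMM factors) in the Yy1 cKO libraries, against 74.6 and 73.7 CPM in the control libraries. The log2 fold change of Yy1 was 0.05 ± 0.065 (SE; edgeR adjusted p = 0.61). These counts cover the whole gene in the whole tissue, the floxed part of Yy1 is not given in the labels, and they therefore do not check the deletion. Of 8 Purkinje cell markers, 1 was higher (Itpr1) and 0 lower, and their median log2 fold change was 0.04. All 8 summed to 4558 to 5303 CPM in Yy1 cKO libraries and 3770 to 4072 CPM in control libraries, which do not overlap. Without the called Itpr1 the other 7 summed to 2303 to 2533 CPM in Yy1 cKO libraries and 2222 to 2549 CPM in control libraries. Those sums overlap, but leaving out a marker because it was called favours overlap. Of 10 markers of dividing cells 8 were lower, with sums of 37.9 to 40.0 CPM in Yy1 cKO libraries and 110.9 to 129.4 CPM in control libraries. Of 8 granule neuron markers 7 were higher, with sums of 3650 to 4085 CPM in Yy1 cKO libraries and 2702 to 2822 CPM in control libraries, and all 6 markers of molecular layer interneurons were higher. Of 5 red blood cell markers 4 were higher, with sums of 594.3 to 960.7 CPM in Yy1 cKO libraries and 261.8 to 301.5 CPM in control libraries. None of these markers was at 0, and their part in the values that follow was not tested. In bulk tissue, fewer cells of a type and less RNA per cell cannot be told apart.

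Because YY1 is the factor under study, the promoters of the members were read for its binding word before their RNA levels are described. RefSeq promoter windows (build GRCm38.p6, 250 bases before to 50 bases after the transcription start) were held for 79 of the 96 symbols. The words searched, on both strands and counted independently of each other, were AANATGGC for YY1, GCGCA, any base and then GCGC for NRF1 and CCGGAAG for ETS factors. The YY1 word stood in 18 member windows (22.8%), against 913 of all 11191 windows (8.16%). All windows here means those of protein-coding genes that passed the filter on low counts. The NRF1 word stood in 19 member windows (24.1%), against 1105 of all windows (9.87%), and the ETS word in 17 member windows (21.5%), against 1903 of all windows (17.0%). A match describes these letters in these windows and is not a measured binding site.

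Shown here are 4 windows from RefSeq, with YY1 and NRF1 words in capitals: Sdha and Cox6a1, the members with the largest rises, Ndufs7, the called member with a YY1 word, and Atp5b, the F1 gene with the highest level per exon length, which also holds one. The Sdha window (chr13:74350191-74350490, minus strand) has 3 NRF1 words, which begin 98, 55 and 10 bases before the start, and no YY1 word.
Sdha: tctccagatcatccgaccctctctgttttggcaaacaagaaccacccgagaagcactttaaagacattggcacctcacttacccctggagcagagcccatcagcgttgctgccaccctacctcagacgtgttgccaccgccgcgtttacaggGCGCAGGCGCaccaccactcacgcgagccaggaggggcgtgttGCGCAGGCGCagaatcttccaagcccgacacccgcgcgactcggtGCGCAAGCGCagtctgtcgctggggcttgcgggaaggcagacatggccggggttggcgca
The Cox6a1 window (chr5:115348909-115349208, minus strand) has 2 NRF1 words, which begin 162 and 117 bases before the start, and no YY1 word.
Cox6a1: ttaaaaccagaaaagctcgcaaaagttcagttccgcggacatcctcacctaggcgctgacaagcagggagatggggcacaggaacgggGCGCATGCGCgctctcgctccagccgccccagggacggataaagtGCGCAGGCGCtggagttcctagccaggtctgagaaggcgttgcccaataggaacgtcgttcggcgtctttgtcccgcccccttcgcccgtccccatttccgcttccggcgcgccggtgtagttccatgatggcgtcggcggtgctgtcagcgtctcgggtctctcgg
The Ndufs7 window (chr10:80249199-80249498, plus strand) has 1 YY1 word, which begins at base 25 of the transcript. Its RefSeq start lies 328 bases from the GENCODE gene start.
Ndufs7: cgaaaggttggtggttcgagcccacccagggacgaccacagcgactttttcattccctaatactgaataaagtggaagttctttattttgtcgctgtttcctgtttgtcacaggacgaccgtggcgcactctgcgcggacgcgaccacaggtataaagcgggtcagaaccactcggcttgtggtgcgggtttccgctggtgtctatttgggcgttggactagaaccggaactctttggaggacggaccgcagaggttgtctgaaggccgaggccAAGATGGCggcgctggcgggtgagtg
The Atp5b window (chr10:128083057-128083356, plus strand) has 1 YY1 word, on the other strand, which begins at base 18 of the transcript.
Atp5b: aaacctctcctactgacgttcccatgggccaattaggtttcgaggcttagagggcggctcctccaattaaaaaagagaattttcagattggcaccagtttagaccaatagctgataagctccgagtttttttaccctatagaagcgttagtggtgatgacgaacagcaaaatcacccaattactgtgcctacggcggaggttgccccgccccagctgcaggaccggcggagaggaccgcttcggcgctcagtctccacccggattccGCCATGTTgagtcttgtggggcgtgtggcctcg

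Most members differed little between the genotypes. Of the 97 members 92 passed the filter on low counts and entered the edgeR quasi-likelihood test, which was fitted to all 20388 genes that passed. At an adjusted p of 0.05, 5 members were higher in Yy1 cKO cerebella, where 10.7% of all genes tested were higher. A further 2 members were lower, where 12.6% of all genes were lower. Together 7 of 92 members (7.61%) were called, where 23.4% of all genes were called. An unadjusted p under 0.05 was reached by 17 members (18.5%), against 35.1% of all genes. The groups of libraries did not overlap for 15 members that were higher and 13 that were lower, which is 30.4% of the members, against 52.2% of all genes.

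The width of the error bars allowed only small changes for most members. The median log2 fold change over the tested members was 0.02, with quartiles of -0.11 and 0.12, and the median over all genes was 0.00. For 88 of the 92 members (95.7%) the whole 95% confidence interval lay within a 1.5-fold change in either direction, which held for 47.2% of all genes. Members are well expressed, so the comparison was repeated at a mean of at least 10 CPM. At that level 7 of 83 members (8.43%) and 3358 of 10731 genes (31.3%) were called, and the interval lay within 1.5-fold for all 83 members and for 76.9% of genes. Library size alone, in place of TMM, left 7 called members but as 1 higher and 6 lower, against 5 higher and 2 lower, and turned the median of the members to -0.053, with a median of -0.08 over all genes.

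**Figure D1:**
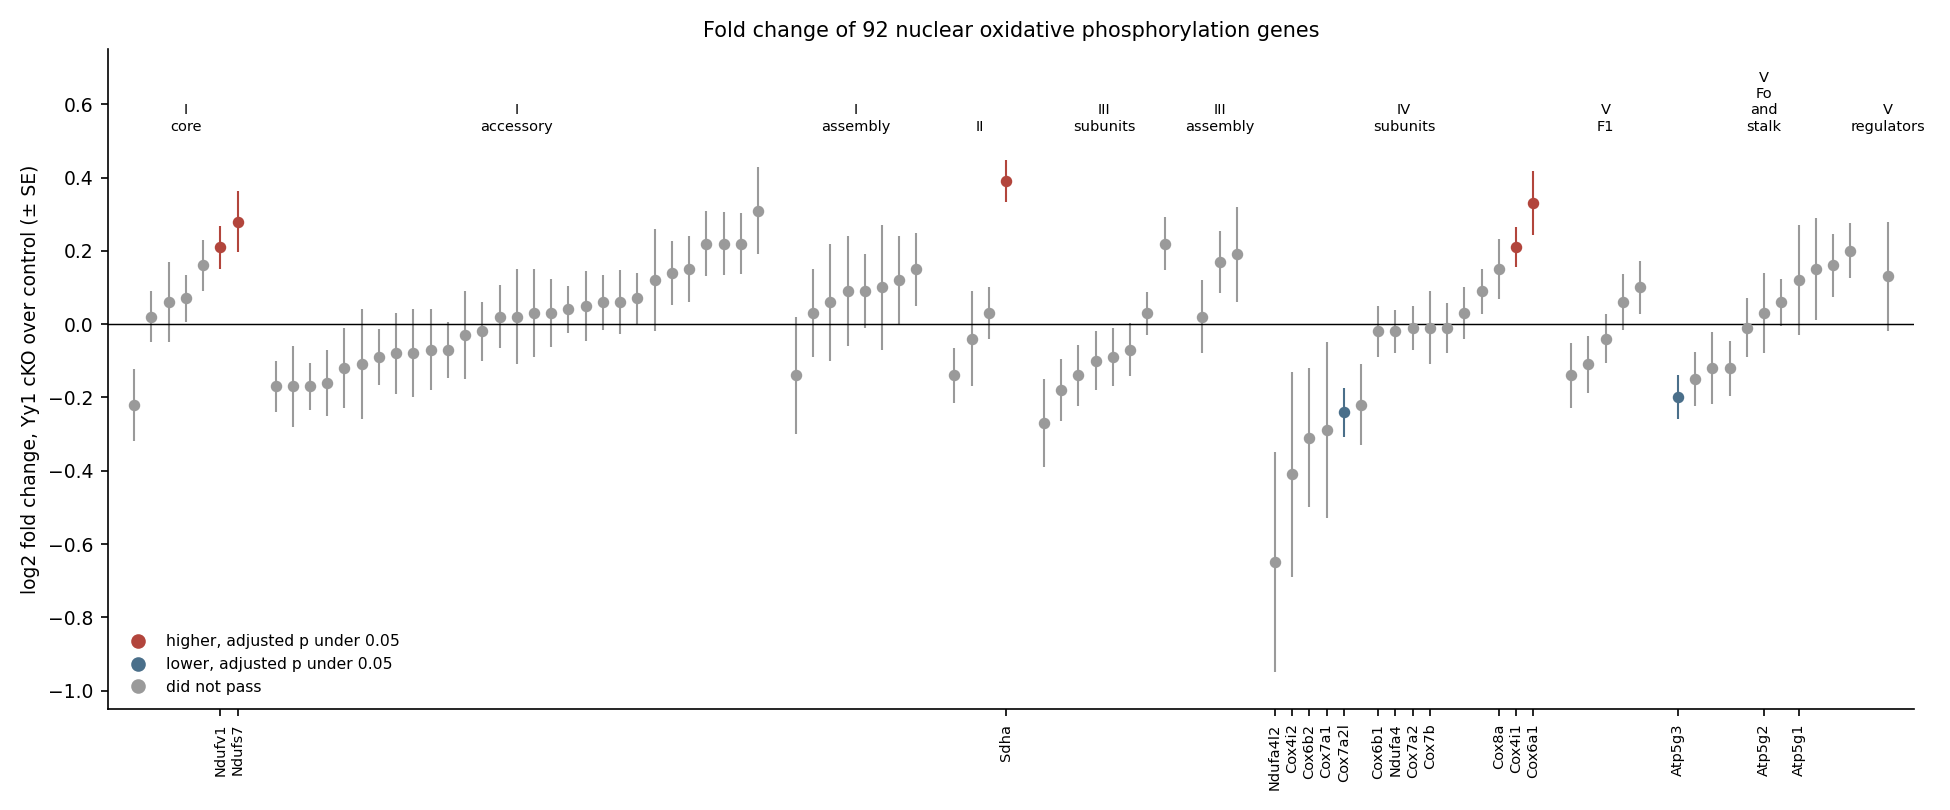
The plot gives the log2 fold change, Yy1 cKO over control, of each of the 92 tested members with its SE, sorted within complexes I to V and by role. Names are given for called members and for genes of paralog pairs. Members with an adjusted p under 0.05 are red (5 higher) or blue (2 lower), and the points run from -0.65 (Ndufa4l2) to 0.39 (Sdha).

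The catalytic flavoprotein of complex II, Sdha (13: 74322254 to 74350280, minus strand), showed the clearest change of all members. Sdha had 221.7, 233.0 and 216.0 CPM in the Yy1 cKO libraries, against 173.7 and 167.8 CPM in the control libraries. All 3 Yy1 cKO libraries lay above both controls. The log2 fold change was 0.39 ± 0.057 (SE; 1.31-fold; 95% interval 0.26 to 0.52; edgeR adjusted p = 0.0011). It kept its call in all 16 alternative fits, with log2 fold changes between 0.31 and 0.41. The other subunits of the same complex were not called. The iron-sulfur subunit Sdhb averaged 57.8 ± 3.3 CPM in Yy1 cKO libraries and 56.8 ± 2.6 CPM in control libraries (SD, n = 3 and 2), a log2 fold change of 0.03 ± 0.071. The membrane anchors had log2 fold changes of -0.14 ± 0.075 (Sdhc) and -0.04 ± 0.13 (Sdhd). Sdha averaged 223.6 ± 8.7 CPM in Yy1 cKO libraries and 170.8 ± 4.2 CPM in control libraries (SD, n = 3 and 2), a wider gap than that of the complex as a whole. The summed level of complex II was 386.8, 404.1 and 359.4 CPM in the Yy1 cKO libraries, against 342.1 and 331.6 CPM in the control libraries.

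Complex I, which oxidises NADH, had 44 tested members, of which 2 were higher and 0 lower. Both were core subunits of the arm that carries electrons from NADH to ubiquinone. These calls are 4.55% of the complex and 28.6% of its 7 core subunits, against 23.4% of all genes. Ndufv1 (19: 4007384 to 4012806, minus strand), which binds NADH and flavin, had 81.7, 84.2 and 80.9 CPM in the Yy1 cKO libraries, against 69.1 and 72.9 CPM in the control libraries. Its log2 fold change was 0.21 ± 0.059 (SE; edgeR adjusted p = 0.029). Ndufs7 (10: 80249121 to 80256794, plus strand), which carries the last iron-sulfur cluster before ubiquinone, had 42.9, 43.6 and 38.02 CPM in the Yy1 cKO libraries, against 33.4 and 34.9 CPM in the control libraries. This was a log2 fold change of 0.28 ± 0.084 (edgeR adjusted p = 0.037). For both genes the groups did not overlap, which held for 52.2% of all genes, and DESeq2 called neither. Another core subunit, Ndufs8, did not pass, at -0.22 ± 0.098 on the log2 scale (edgeR adjusted p = 0.14). Its groups did not overlap either, with 34.6, 33.4 and 28.1 CPM in the Yy1 cKO libraries, against 37.2 and 37.6 CPM in the control libraries.

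None of the 29 accessory subunits of complex I, which surround the core and stabilise it, was called by edgeR, DESeq2 or limma-voom. An unadjusted p under 0.05 was reached by 6 (20.7%), against 35.1% of all genes. Those 6 had fold changes of both signs. Ndufb9, Ndufb5, Ndufab1 (the mitochondrial acyl carrier protein) and Ndufb10 had log2 fold changes of 0.22 to 0.31, and Ndufs4 and Ndufb11 had -0.17 each. Ndufb11, the accessory subunit with the highest level per length (50.02 CPM per kb), overlaps Rbm10 by 117 bases on the opposite strand, and the strand setting of the counting is not given, so reads of these genes may be mixed. The 8 assembly factors of complex I with Ndufaf names also held 0 calls by all 3 tools and no unadjusted p under 0.05, with log2 fold changes of -0.14 (Ndufaf2) to 0.15 (Ndufaf1). Their levels were lower than those of the subunits, with a median of 6.01 CPM per kb of exon over the assembly factors, 26.5 over the core subunits and 22.1 over the accessory subunits.

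Complex III, the cytochrome bc1 complex, had 11 tested members and 0 calls by edgeR, DESeq2 or limma-voom, where edgeR called 23.4% of all genes. An unadjusted p under 0.05 was reached by 2 members (18.2%), against 35.1% of all genes. These 2 had opposite signs. The core protein Uqcrc1 had 159.5, 168.7 and 142.9 CPM in the Yy1 cKO libraries, against 132.4 and 136.8 CPM in the control libraries, and the groups did not overlap. Its log2 fold change of 0.22 ± 0.073 stopped just short of the threshold (edgeR adjusted p = 0.053). The small subunit Uqcrb had 19.8, 17.5 and 15.3 CPM in the Yy1 cKO libraries, against 21.1 and 21.2 CPM in the control libraries (log2 fold change -0.27 ± 0.12, edgeR adjusted p = 0.14). The remaining subunits, among them the Rieske iron-sulfur protein Uqcrfs1 (-0.07 ± 0.072) and Uqcr10 (-0.14 ± 0.082), had log2 fold changes of -0.18 to 0.03. The assembly factors Uqcc1, Uqcc2 and Uqcc3 had log2 fold changes of 0.17, 0.02 and 0.19.

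Complex IV, cytochrome c oxidase, had the widest spread, from -0.65 to 0.33 on the log2 scale, with 2 of 16 tested members higher and 1 lower. These calls are 18.8% of the complex, against 23.4% of all genes. The low end was the rare paralog Ndufa4l2, which had 19 to 37 counts per library and was not called. Over members of all complexes with a mean of at least 10 CPM the range was -0.27 to 0.39. Ndufa4 and its paralog Ndufa4l2 were counted here because the Ndufa4 protein is now placed in this complex. Cox4i1 (8: 120668222 to 120674207, plus strand), the ubiquitous form of subunit 4, had 238.9, 245.9 and 233.3 CPM in the Yy1 cKO libraries, against 208.4 and 205.3 CPM in the control libraries (log2 fold change 0.21 ± 0.054, edgeR adjusted p = 0.020). Cox6a1 (5: 115345642 to 115348981, minus strand), the non-muscle form of subunit 6a, had 134.1, 136.2 and 111.1 CPM in the Yy1 cKO libraries, against 101.4 and 100.3 CPM in the control libraries (log2 fold change 0.33 ± 0.088, edgeR adjusted p = 0.025). In both genes every Yy1 cKO library lay above both controls. Cox4i1 overlaps Emc8 by 352 bases on the opposite strand, with the same limit. It also overlaps Gm20388 by 5986 bases on the same strand. Gm20388 had 0 counts, and how reads shared by the 2 genes were counted is not given. Cox7a2l (17: 83501918 to 83517330, minus strand), a relative of subunit 7a that joins complexes III and IV into supercomplexes, was lower, with 43.2, 43.6 and 44.9 CPM in the Yy1 cKO libraries, against 53.8 and 49.9 CPM in the control libraries. Its log2 fold change was -0.24 ± 0.067 (edgeR adjusted p = 0.028), and the groups did not overlap. Cox8a had the highest level per length of all members (316.4 CPM per kb of exon), with 206.2, 223.5 and 181.4 CPM in the Yy1 cKO libraries and 184.6 and 183.5 CPM in the control libraries, and its groups overlapped (log2 fold change 0.15 ± 0.082).

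Complex V had 17 tested members, 0 higher and 1 lower, which is 5.88% of the complex, against 23.4% of all genes. The called gene was Atp5g3 (2: 73908447 to 73911326, minus strand), one of 3 genes for the same subunit c of the proton-driven ring. Atp5g3 had 91.9, 99.8 and 92.6 CPM in the Yy1 cKO libraries, against 108.3 and 109.5 CPM in the control libraries (log2 fold change -0.20 ± 0.060, edgeR adjusted p = 0.037). All Yy1 cKO libraries lay below both controls. The subunits of the F1 part held 0 calls of 5 by edgeR, DESeq2 and limma-voom and no unadjusted p under 0.05. The catalytic beta subunit Atp5b had 800.3, 847.8 and 740.7 CPM in the Yy1 cKO libraries, against 737.6 and 745.8 CPM in the control libraries, so its groups overlapped (log2 fold change 0.10 ± 0.072, 95% interval -0.06 to 0.26). The epsilon subunit Atp5e had the smallest p of the F1 genes (log2 fold change -0.14 ± 0.088). Atp5l, subunit g of the membrane part, had log2 fold change 0.20 ± 0.075 (edgeR adjusted p = 0.088). Atp5s, a coupling factor, had 0.13 ± 0.15.

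**Figure D2:**
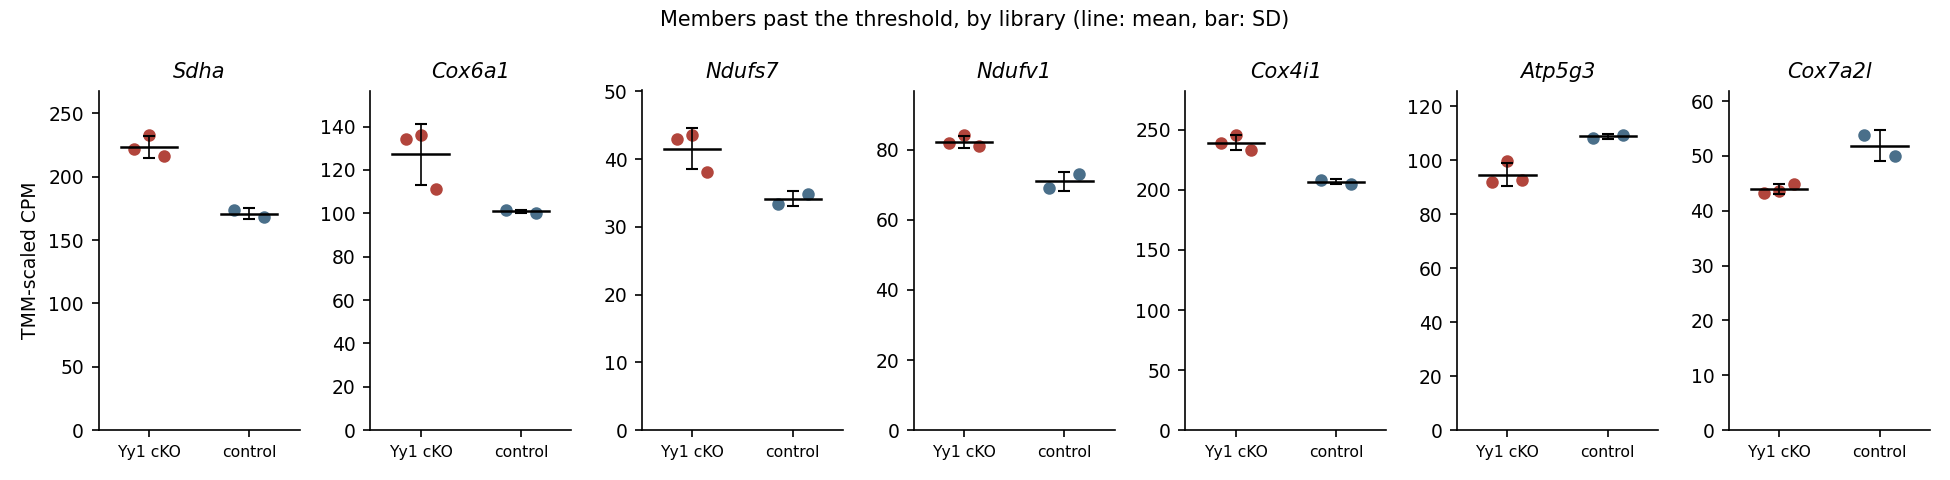
Each panel gives the TMM-scaled CPM of 1 called member in the 3 Yy1 cKO libraries (left) and the 2 control libraries (right), with the mean as a line and the SD as a bar. In all 7 panels, each of a gene picked by its call, the groups do not overlap, which held for 52.2% of all genes. In Cox6a1 the lowest Yy1 cKO library (111.1 CPM) lies close to the controls (101.4 and 100.3 CPM).

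The call of Sdha held whichever library was left out, while the others were lost in some of these smaller fits, in which fewer of all genes were called as well. With either control library left out, Sdha was the single member called, and 10.3% of all genes tested were called. Without Yy1 cKO replicate 1 the same was true, with 16.7% of all genes called. Without Yy1 cKO replicate 3 the count grew to 17 higher and 2 lower of 92 (20.7%), where 30.5% of all genes were called. Those 19 members include all 7 and add members of every complex but complex II, among them Uqcrc1, Ndufb9, Cox8a and Atp5b. DESeq2 called 3 members higher (Sdha, Cox4i1 and Cox6a1) and 0 lower, with 19.6% of all genes called, and limma-voom called the 7 members of the main test. With 1 library left out, log2 fold changes ran from 0.19 to 0.23 for Cox4i1, 0.28 to 0.42 for Cox6a1, 0.17 to 0.25 for Ndufv1 and 0.25 to 0.34 for Ndufs7. They were -0.29 to -0.19 for Cox7a2l and -0.24 to -0.18 for Atp5g3.

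Yy1 cKO replicate 3 stood apart in the level of the members as a whole. It was the lowest of the 3 Yy1 cKO libraries for 74 of 92 members (80.4%), against 38.4% of all genes tested, and the lowest of all 5 libraries for 50 members. The median log2 ratio of the members to the control mean was 0.026, 0.081 and -0.083 in Yy1 cKO replicates 1, 2 and 3, and -0.004 to -0.011 for all genes in these libraries. Summed over all members, the level was 6174, 6437 and 5677 CPM in the Yy1 cKO libraries, against 5888 and 5859 CPM in the control libraries. The Yy1 cKO libraries therefore lay on both sides of the controls, and their mean was 1.04 times that of the controls. The same order appeared in complexes I, III, IV and V, while complex II, through Sdha, was above the controls in every Yy1 cKO library. The 13 protein-coding genes of mitochondrial DNA summed to 25490, 23400 and 21380 CPM in the Yy1 cKO libraries, against 22880 and 23050 CPM in the control libraries, and Yy1 cKO replicate 3 was again the lowest. What sets this library apart was not tested.

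**Figure D3:**
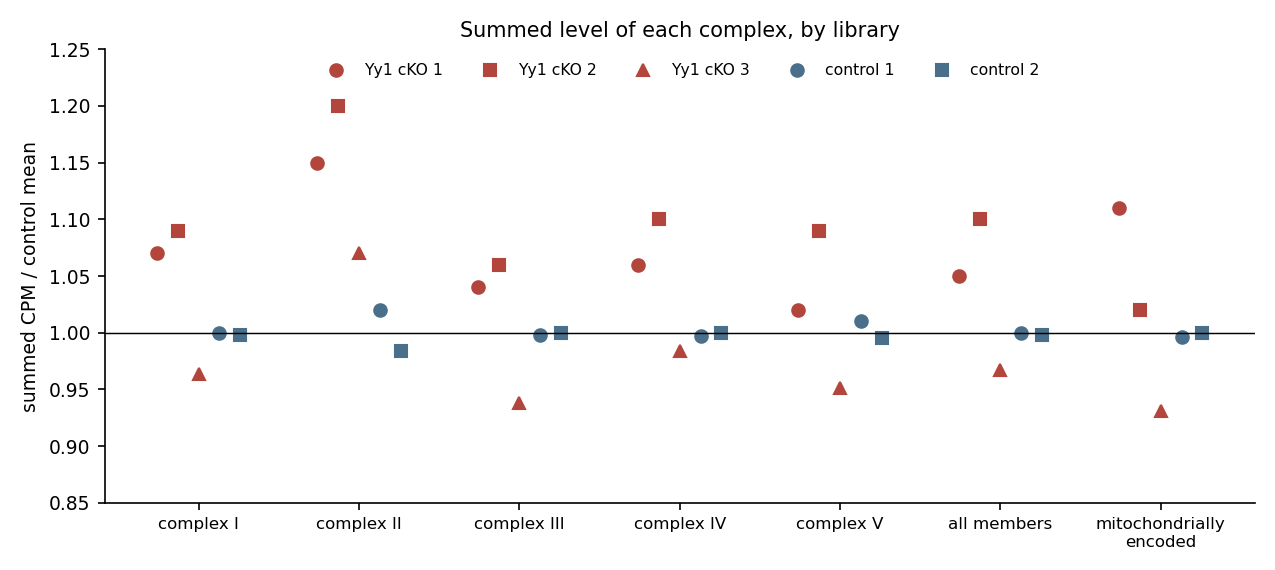
The plot gives the summed CPM of the members of each complex, of all members and of the mitochondrially encoded genes in each library, divided by the mean of the 2 control libraries. Yy1 cKO replicate 3 (triangle) is the lowest Yy1 cKO library in every set, and complex II is the set of nuclear genes with all 3 Yy1 cKO libraries above 1.05.

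Several subunits exist as pairs of a common and a rarer or tissue-restricted paralog, and 7 of 11 listed pairs had both genes above the filter. The ratio within a library does not depend on its scaling. In 4 pairs the rarer oxidase gene lay lower relative to its partner in every Yy1 cKO library than in either control. Cox4i2, the isoform of subunit 4 induced by low oxygen, was a small share of the pair, with counts of 21, 21 and 22 across the Yy1 cKO libraries, against 29 and 26 across the control libraries. Its log2 ratio to Cox4i1 averaged -7.70 ± 0.097 in Yy1 cKO libraries and -7.08 ± 0.057 in control libraries (SD, n = 3 and 2), a difference of -0.62. Cox6b2, known as the testis form, had a ratio to Cox6b1 of -5.15 ± 0.087 in Yy1 cKO libraries and -4.85 ± 0.10 in control libraries, a difference of -0.30. Ndufa4l2, another gene induced by low oxygen, had counts of 20, 19 and 22 across the Yy1 cKO libraries, against 37 and 25 across the control libraries, and its ratio to Ndufa4 differed by -0.60. That difference was -0.29 without control replicate 1 and -0.91 without control replicate 2, so control replicate 1 holds much of it. The ratio of Cox7a2l to Cox7a2 differed by -0.23, and Cox7a2 itself had a log2 fold change of -0.01 ± 0.060. The muscle form Cox7a1 had a ratio to Cox7a2 that overlapped between the groups, with a difference of -0.27 that was -0.16 without Yy1 cKO replicate 1 and -0.15 without control replicate 1.

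The subunit c genes of complex V differed in the other direction. The ratio of Atp5g1 to Atp5g3 averaged -0.91 ± 0.15 in Yy1 cKO libraries and -1.23 ± 0.23 in control libraries on the log2 scale, a difference of 0.32 that was 0.48 without control replicate 1 and 0.16 without control replicate 2. The ratio of Atp5g2 to Atp5g3 averaged -2.50 ± 0.15 in Yy1 cKO libraries and -2.73 ± 0.12 in control libraries, a difference of 0.23 that was 0.15 without Yy1 cKO replicate 1 or without control replicate 2. Per exon length, Atp5g1 made 18.4%, 21% and 18% of the sum of the Atp5g1 and Atp5g3 levels in the Yy1 cKO libraries, against 17.4% and 14.4% in the control libraries. In the edgeR test neither Atp5g1 (0.12 ± 0.15) nor Atp5g2 (0.03 ± 0.11) passed, and Atp5g3 did.

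In all, 6 of the 7 ratios did not overlap between the groups. The levels of 52.2% of all single genes did not overlap either, and the share among ratios of other gene pairs was not computed. The ratios are not separate observations where they share a gene, as the 2 with Atp5g3, itself called lower, and the 2 with Cox7a2 do. Cox4i1, called higher, and Cox7a2l, called lower, also enter these ratios. The exact two-sided permutation test over the 5 libraries has 10 arrangements and cannot go below p = 0.1, so no pair could pass 0.05. The p was 0.1 for 5 pairs (0.14 adjusted over the 7 pairs), 0.2 for Atp5g2 to Atp5g3 (0.233 adjusted) and 0.3 for Cox7a1 to Cox7a2. Of the rarer genes, Ndufa4l2, Cox4i2, Cox6b2 and Cox7a1 were also low in absolute terms and did not pass the edgeR test, unlike Cox7a2l. Their log2 fold changes were -0.65 ± 0.30 (Ndufa4l2, adjusted p = 0.15), -0.41 ± 0.28 (Cox4i2, adjusted p = 0.33), -0.31 ± 0.19 (Cox6b2, adjusted p = 0.28) and -0.29 ± 0.24 (Cox7a1, adjusted p = 0.45). Cox4i2 and Ndufa4l2 are known to be expressed in the mural cells of blood vessels. Of 10 mural cell markers 3 were lower (Rgs5, Notch3 and Acta2) and 0 higher, their summed level was 200.5, 223.3 and 183.6 CPM in the Yy1 cKO libraries, against 263.8 and 299.5 CPM in the control libraries, and none was at 0. Their part in the ratios was not tested.

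The other 4 pairs hold genes too low to test. Cox6a2, a muscle form, had counts of 4, 3 and 5 across the Yy1 cKO libraries, against 5 and 7 across the control libraries. Cox7b2 was read 3, 1 and 2 times in the Yy1 cKO libraries, against 5 times in each control library. Cox8b, another muscle form, had counts of 4, 2 and 3 across the Yy1 cKO libraries, against 1 and 0 across the control libraries. Cox8c had 0 counts in all 5 libraries, as did the second Atp5o identifier. A difference was not detectable at this depth.

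**Figure D4:**
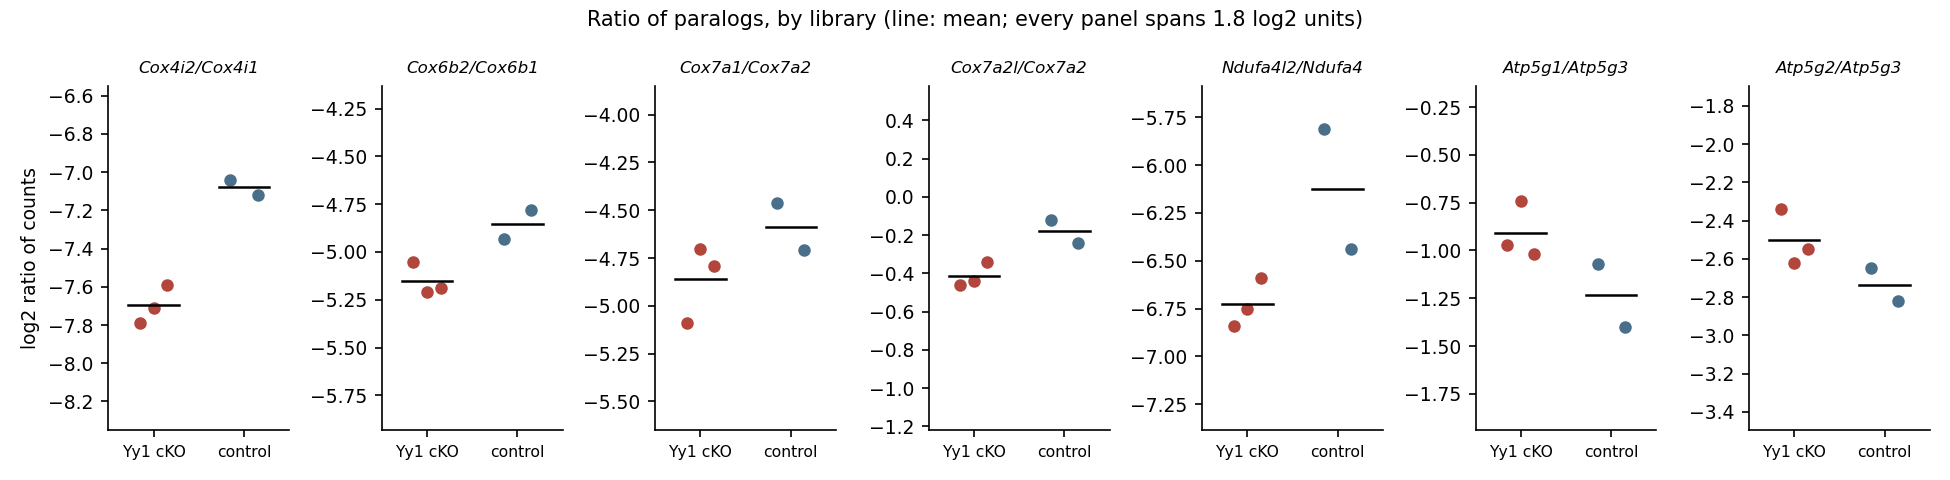
Each panel gives the log2 ratio of the counts of 2 paralogs in the 3 Yy1 cKO libraries (left) and the 2 control libraries (right), with the mean as a line; every panel spans the same range. The groups overlap in the Cox7a1 panel alone, and in the Ndufa4l2 panel the control points lie far apart, at -5.81 and -6.44.

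The fold changes of members with and without the promoter words are given as descriptions, and the differences between them were not tested. The 18 tested members with a YY1 word had a median log2 fold change of 0.01 (range -0.22 to 0.31) and 1 call (Ndufs7), and the 59 without it had a median of 0.03 and 5 calls. The 19 members with an NRF1 word had a median of 0.05 and 3 calls (Sdha, Cox6a1 and Atp5g3), and the 58 without it had a median of -0.01 and 3 calls. The 17 members with an ETS word had a median of 0.03 and 1 call, and the 60 without it had a median of 0.02 and 5 calls. A called member with no window, Cox4i1, is in none of these counts. For scale, 23.4% of all genes tested were called.

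Longer members had higher fold changes on average. Across the 92 members the Spearman correlation of the fold change with exon length was 0.33, and across 20360 genes it was 0.09. These points share their libraries and are not independent. The 22 members under 1000 bases had a median of -0.08, and the 34 members of 2000 bases or more had a median of 0.07. With an offset for length in the fit, 8 members were higher and 0 lower, where 22.5% of all genes were called. Cox7a2l (-0.18, edgeR adjusted p = 0.083) and Atp5g3 (-0.18, adjusted p = 0.061) kept their sign but not their calls.

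Outside the rule, 71 of 74 further genes of the pathway were tested, of which 6 were higher and 1 lower. These 7 calls are 9.86% of the genes tested, against 23.4% of all genes. The call with the smallest p stood among the 11 transcriptional regulators. Ppargc1b, the coactivator PGC-1beta that drives mitochondrial gene expression, had 100.8, 96.6 and 82.1 CPM in the Yy1 cKO libraries, against 50.8 and 52.5 CPM in the control libraries. Its log2 fold change was 0.85 ± 0.089 (edgeR adjusted p = 0.00018), and it was called in all 16 alternative fits, between 0.77 and 0.94. Its relative Ppargc1a (PGC-1alpha) had 62.8, 64.5 and 73.7 CPM in the Yy1 cKO libraries, against 53.3 and 53.7 CPM in the control libraries (0.33 ± 0.079, adjusted p = 0.015). The nuclear receptor Esrra, a partner of both coactivators, had 48.6, 54.4 and 47.3 CPM in the Yy1 cKO libraries, against 37.6 and 41.4 CPM in the control libraries (0.34 ± 0.083, adjusted p = 0.016). Gabpa, the DNA-binding subunit of GABP, was lower, with 40.2, 40.8 and 43.7 CPM in the Yy1 cKO libraries, against 52.3 and 52.2 CPM in the control libraries (-0.33 ± 0.068, adjusted p = 0.0066). Every one of these 4 regulators had groups that did not overlap, which held for 52.2% of all genes. For genes already called, such a gap adds no separate support. Nrf1 (-0.11 ± 0.078, adjusted p = 0.36) and Tfam, the packaging and transcription factor of mitochondrial DNA (0.20 ± 0.082, adjusted p = 0.11), did not pass. Without a control library Ppargc1b was the single regulator still called.

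**Figure D5:**
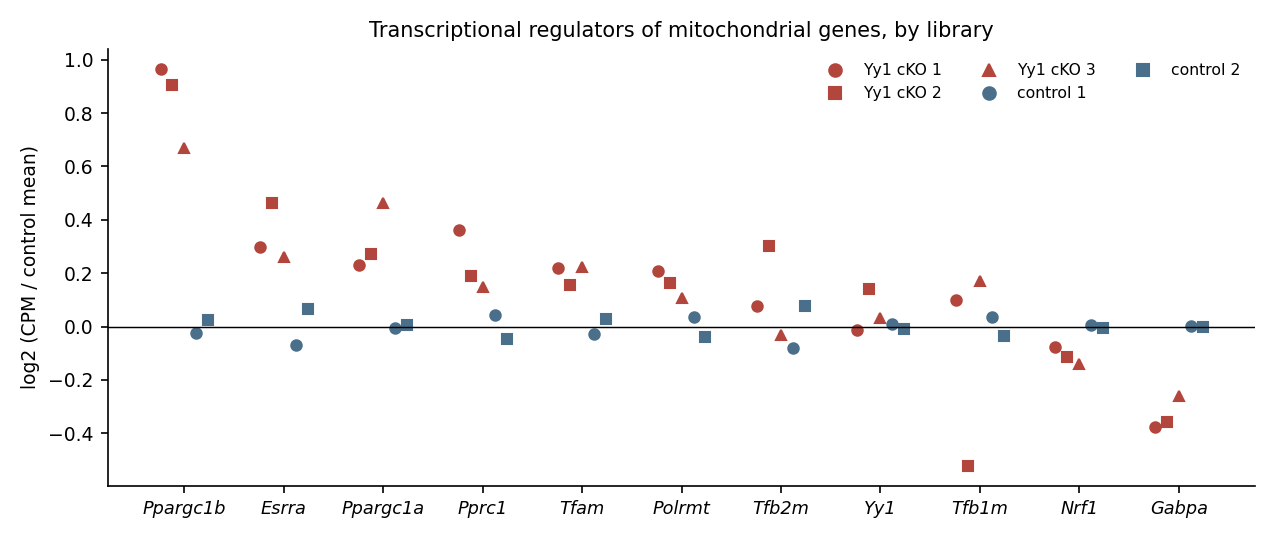
The plot gives the log2 ratio of the CPM of 11 transcriptional regulators in each library to the mean of the 2 control libraries. Ppargc1b lies highest in all 3 Yy1 cKO libraries, Gabpa lies below both controls in all 3, and Yy1 itself scatters around 0.

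Assembly factors outside the rule held the other 3 calls. Ttc19, which clears fragments of the Rieske protein from complex III, had 70.3, 72.6 and 67.5 CPM in the Yy1 cKO libraries, against 58.1 and 57.1 CPM in the control libraries (log2 fold change 0.28 ± 0.062, edgeR adjusted p = 0.009). Dmac2, needed for the distal membrane arm of complex I, rose by 0.36 ± 0.098 (adjusted p = 0.025). Sdhaf3, an assembly factor of complex II that acts on the iron-sulfur subunit, rose by 0.47 ± 0.13 (adjusted p = 0.029). With either control library left out none of these 3 was called, and DESeq2 did not call Sdhaf3. With 1 library left out their fold changes ran from 0.26 to 0.31 (Ttc19), 0.30 to 0.42 (Dmac2) and 0.44 to 0.51 (Sdhaf3). None of the 13 mitochondrially encoded genes was called by edgeR, DESeq2 or limma-voom or had an unadjusted p under 0.05, and their median log2 fold change was 0.02. Of 22 tested assembly factors of complex IV, 0 were called by these 3 tools. An unadjusted p under 0.05 was reached by 2 of them, and by 35.1% of all genes.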

How the data were processed

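Whole mouse cerebella (3 Yy1 cKO and 2 control libraries) were profiled by bulk RNA-seq. Per the labels, total RNA was isolated with TRIzol, ribosomal RNA was removed and strand-specific libraries were read as 150 bp pairs. The submitters' processing notes name FastQC 0.11.8, Trimmomatic 0.39, STAR 2.7.1a, featureCounts, DESeq2 1.26.0 and GRCm38. Strand and multiple-match settings are not given in those sources. The authors deposited raw read counts per gene, which were used here; their normalized table was not used.

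Identifiers were matched to GENCODE M21 (54673 with version, 567 without, 181 unmatched). Groups came from the sample titles. Chi-square per gene ranged from 3.51 to 16.7 for pairs inside a group and from 34.1 to 41.5 for pairs across groups, and no pair looked like a repeated deposit. Genotypes were compared by quasi-likelihood F tests (edgeR 4.0.16, R 4.3.3; TMM, filterByExpr, robust dispersion, no covariate, Benjamini-Hochberg adjustment over 20388 genes, adjusted p under 0.05), Yy1 cKO over control. The common biological coefficient of variation was 10.5%. SE came from the F statistic. CPM are TMM-scaled. CPM per kb used the union of GENCODE exons, so levels between genes are approximate. Paralog ratios were log2((count + 0.5)/(count + 0.5)). The test was checked on simulated counts. Alternatives were other scalings, filters, limma-voom (limma 3.58.1), DESeq2 1.42.0, covariates, a length offset, thresholds and each library left out.

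Named were all called members, both genes of each pair, the member with the highest CPM per kb and that with the smallest p in each role, and called genes of the other lists. One gene that this rule picks is not reported here. Others named beside them were chosen after their values were seen. Members and lists were chosen with earlier results of these data known, so lists have counts and medians but no test of their own.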

Additional observations from a re-analysis of the deposited data

How the results depend on the processing

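Against 5 members higher and 2 lower, DESeq2 gave 3 and 0, and a length offset 8 and 0. Library size alone gave 1 and 6, and no filter 9 and 3. An adjusted p of 0.01 gave 1 and 0, and 0.1 gave 9 and 3. Of all genes, 19.6% were called by DESeq2, 22.5% with the length offset, 23.5% with library size alone and 17.2% with no filter. Of the members, the same fits called 3.26%, 8.7%, 7.61% and 12.6%. The main fit called 23.4% of all genes and 7.61% of the members. Leaving out 1 library gave 1 to 17 higher and 0 to 2 lower members. Against 6 other pathway genes higher and 1 lower, library size alone gave 3 and 3, no filter 7 and 2, an adjusted p of 0.01 gave 2 and 1, and 0.1 gave 9 and 3, and leaving out 1 library gave 1 to 17 higher and 0 to 1 lower. Library size alone also moved the median log2 fold change of the members to -0.053 (0.025 with TMM), of complex III to -0.144 (-0.066), of complex IV to -0.093 (-0.014) and of complex V to -0.049 (0.029), and the length offset moved complex IV to 0.07. The Ndufa4l2 to Ndufa4 difference ran from -0.91 to -0.29 with 1 library left out. With 1 control left, that library is assumed to vary like the others. Scaling by size factors, TMM without mitochondrial genes, a filter of 1 CPM in 2 libraries, an Xist covariate, dispersion without the robust option and limma-voom gave 5 or 6 higher and 2 or 3 lower members. In these fits 22.5% to 25.6% of all genes were called. For the named genes, of the single-gene values recomputed, 520 kept their side of the threshold, 54 lost it and 18 gained it, and no called gene changed sign. The cause of these shifts was not tested.

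Whether the replicate numbers pair the libraries could not be settled. Deviations from the group means correlated at 0.04 and 0.01 between same-numbered libraries, and only numbers 1 and 2 occur in both groups. The deviations of 2 control libraries mirror each other, so these values cannot exclude a pairing. With a replicate block 18 members were higher and 2 lower, with 34.6% of all genes called, and 20 other pathway genes were higher and 3 lower. Replicate 3 has no control partner, so this fit in effect leaves Yy1 cKO replicate 3 out, and 19 of its 20 member calls were shared with the fit without that library.

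With 2 control libraries, precision rests on few degrees of freedom, and the rare paralogs, with few counts, could not show small changes. Counts from the whole cerebellum do not resolve Purkinje cells.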
